A study of Mus musculus with 12 samples.

Results

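The genes described here are the TAM receptors Axl, Mertk and Tyro3 and the genes of their ligands, Gas6 and Pros1, taken from the count table by symbol. All 5 were present among its 46095 genes and all 5 passed the filter on low counts, as did 13743 genes in all. RNA was sequenced from pancreas of mice with caerulein pancreatitis, 6 C57BL/6J wild type samples (WT 1 to 6) and 6 from mice labelled AMKO, which are Axl-/-Mertk-/- by the design of the series (AMKO 1 to 6). Every mouse was at postnatal day 56 and had received caerulein, a cholecystokinin analogue that overstimulates acinar cells, as 10 hourly intraperitoneal injections of 100 µg/kg, with tissue taken 12 h after the first. The construction of the alleles, the exons they remove, the strain background of the AMKO mice and the sex of the mice are not stated in the sources used here, and no untreated pancreas was analysed here. All values therefore describe genotypes within acute pancreatitis.

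TAM receptors are receptor tyrosine kinases on macrophages, dendritic cells and many epithelial, stromal and endothelial cells. Their ligands GAS6 and protein S (the product of Pros1) carry a vitamin K-dependent Gla domain that binds phosphatidylserine on dying cells, and a pair of C-terminal globular domains that bind the receptor, so that one molecule bridges the dying cell to the phagocyte. Receptor signalling promotes the engulfment of the dying cell and restrains innate immune activation.

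Library totals ran from 10668637 to 15184371 counts. The label pancreas was matched by acinar markers, whose summed level was 154000 to 289000 CPM (counts scaled to library size, with libraries matched by the trimmed mean of M values, TMM), although Prss2 was listed at 0 throughout. Markers of other cells varied between libraries of the same genotype. The 12 macrophage markers summed to 372 to 908 CPM in WT and 535 to 1620 CPM in AMKO, highest in AMKO 1 and AMKO 5, with none of the 12 at 0 in any library and 1 of 12 called (8.33%, against 5.78% of all genes tested), Mrc1, which rose. Of 9 tested acinar markers 2 rose (22.2%), Bhlha15 and Ptf1a, and of 7 duct markers 2 fell (28.6%), Epcam and Muc1. The other tested markers of both lists were not called. The median log2 fold change (AMKO minus WT) was 0.09 over the acinar list, with 1 marker below 0. Over the duct list it was -0.30, with all 7 below 0. The 8 neutrophil markers summed to 64.6 to 614 and 50.1 to 336 CPM and were lowest in WT 3, WT 6, AMKO 3 and AMKO 6, with Mpo at 0 counts in 9 libraries and Ly6g in 1. Hepatocyte markers, 9 genes, summed to 3.39 to 12.7 CPM in WT 1 to 3, against 29.3 to 43.4 CPM in WT 4 to 6 and 24.5 to 56.2 CPM in AMKO, with Apoa1, Apob and Serpina1a at 0 counts in 3 libraries each.

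The receptors are recognised by a conserved stretch of their kinase domain. The coding bases of that stretch in mouse are shown because the receptors must be told apart by their reads. In each line the 7 codons of the family motif are in capitals and the sequence, 21 codons from the GENCODE M21 transcripts (GRCm38), runs 5′ to 3′ on the coding strand.
Axl: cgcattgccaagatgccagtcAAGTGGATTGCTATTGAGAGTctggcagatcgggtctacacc
Mertk: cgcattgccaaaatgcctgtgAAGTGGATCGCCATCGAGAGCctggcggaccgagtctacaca
Tyro3: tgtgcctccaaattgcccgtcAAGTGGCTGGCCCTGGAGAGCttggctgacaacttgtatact
Over these 63 bases Axl and Mertk were identical at 52 (82.5%), Mertk and Tyro3 at 41 (65.1%) and Axl and Tyro3 at 38 (60.3%). Even so, the longest exact run shared by any transcripts of 2 receptors was 14 bases. No transcript of another gene matched a transcript of any of the 5 genes at 95% identity or more over at least 100 bases. Of the 5 genes, Gas6 alone has exons that overlap those of another protein-coding gene, Tmem255b on the opposite strand, and whether counting used strand is not stated in the sources used here, so its counts are uncertain.

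Axl, one of the 2 targeted genes, encodes the receptor with the highest affinity for GAS6. It lies on chromosome 7, minus strand (chr7:25757273-25788705, GRCm38). Wild type libraries held 44.4 CPM at the lowest (WT 3), 59.8 CPM at the median and 77.1 CPM at the highest (WT 2). AMKO libraries held 5.6 CPM at the lowest (AMKO 4), 9.44 CPM at the median and 11.5 CPM at the highest (AMKO 1). Every AMKO library was thus far below every wild type library, a separation that 3.54% of all genes tested showed in one direction or the other. Axl fell from 58.9 ± 12.3 to 9.09 ± 2.2 CPM (SD, n = 6 each), a log2 fold change of -2.69 (SE 0.18, 95% interval -3.07 to -2.31; edgeR quasi-likelihood test, adjusted p = 1.95e-06). It ranked 3 by p-value among all genes tested, and it was the 1 member of 5 that was called, where 5.78% of all genes tested were called, 3.37% lower and 2.41% higher in AMKO. Between 66 and 187 counts remained in each AMKO library, with exact Poisson 95% intervals for counting error of 51 to 84 for the lowest and 161 to 216 for the highest. The mean AMKO level was 15.4% of wild type. Since the table has 1 value per gene, the exons behind these reads are unknown.

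The part of promoter motifs in the fall of Axl, a targeted gene, was not tested. The promoter window of Axl is shown here, and those of the other members, which were not called, were searched for the same motifs. It is the RefSeq window of 250 bases before to 50 after the annotated start (GRCm38.p6, chr7:25788684-25788983, minus strand, written 5′ to 3′ along the gene), and capitals mark GC boxes (GGGCGG or CCGCCC, either strand).
Axl promoter: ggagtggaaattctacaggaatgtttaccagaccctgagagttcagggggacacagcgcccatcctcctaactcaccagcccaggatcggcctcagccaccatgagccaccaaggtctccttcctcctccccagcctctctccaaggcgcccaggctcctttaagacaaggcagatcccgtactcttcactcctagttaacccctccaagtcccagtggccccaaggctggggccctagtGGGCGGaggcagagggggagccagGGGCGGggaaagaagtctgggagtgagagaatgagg
It held 2 GC boxes. Such a box, a site that Sp1 family factors can bind, was present in 35.66% of 32851 mouse promoter windows of the same length, and in the windows of all 5 genes, with 4 in Mertk, 6 in Tyro3, 4 in Gas6 and 5 in Pros1, some of them overlapping. Neither an AP-1 site (TGANTCA, which reads alike on both strands; 7.81% of windows) nor an exact consensus DR4 element of LXR/RXR (searched on both strands; 0.02% of windows) was found in any of the 5 windows.

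**Figure D1:**
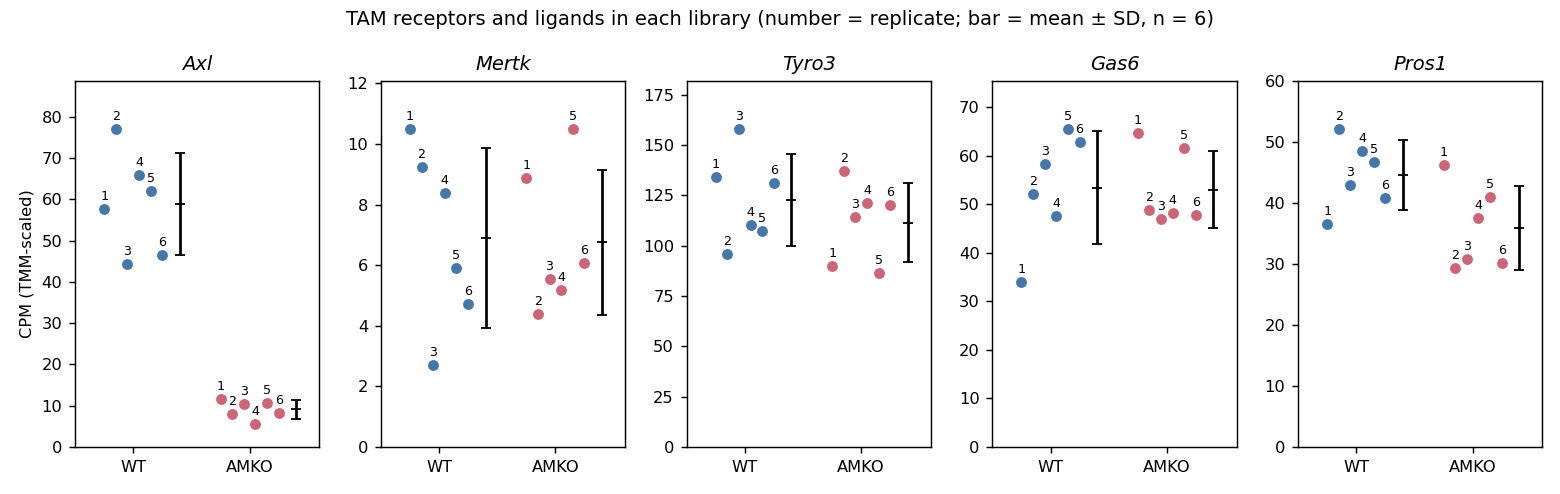
TMM-scaled CPM of the 5 genes in each library (points, numbered by replicate), with mean and SD at the right of each genotype (n = 6 each). Axl separates the genotypes, at 44.4 to 77.1 CPM in WT and 5.6 to 11.5 CPM in AMKO, while the other 4 genes overlap between genotypes, and each panel has its own vertical axis from 0.

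Mertk, the other targeted gene, encodes the receptor most used by macrophages for engulfment, and it did not separate the genotypes. It lies on chromosome 2, plus strand (chr2:128698956-128802894). Wild type libraries held 2.69 CPM at the lowest (WT 3), 7.13 CPM at the median and 10.5 CPM at the highest (WT 1). AMKO libraries held 4.37 CPM at the lowest (AMKO 2), 5.79 CPM at the median and 10.5 CPM at the highest (AMKO 5). The groups overlapped over most of their range, and both were wide, with SDs of 42.9% of the mean in WT and 35.4% in AMKO. The fitted log2 fold change was -0.03 (SE 0.30, edgeR adjusted p = 0.968), and its 95% interval of -0.68 to 0.62 spans a level in AMKO from 62.4% to 154% of wild type. The table therefore bounds the whole-gene level of Mertk only loosely and does not check the targeted exons.

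Mertk is given beside macrophage RNA because macrophages carry this receptor. The lowest Mertk was in WT 3, which also had the lowest summed macrophage markers (372 CPM), and the highest in AMKO was in AMKO 5 and AMKO 1 (10.5 and 8.88 CPM), which had the highest (1620 and 1430 CPM). WT 1, with as much Mertk as AMKO 5, had a macrophage sum of 794 CPM. In AMKO 2, AMKO 4, AMKO 3 and AMKO 6 the order was reversed. Their macrophage sums were 927, 758, 617 and 535 CPM, and their Mertk levels were 4.37, 5.18, 5.53 and 6.06 CPM. In whole tissue, fewer cells of a type and less RNA per cell cannot be told apart. With a macrophage marker score as a covariate the log2 fold change of Mertk was -0.31 (SE 0.20, edgeR adjusted p = 0.311), which did not pass the test. Without AMKO 1 and AMKO 5 it was -0.37 (SE 0.31, adjusted p = 0.435).

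The Mertk promoter window is shown beside that of Axl, since both genes were targeted (GRCm38.p6, chr2:128698665-128698964, plus strand, GC boxes in capitals).
Mertk promoter: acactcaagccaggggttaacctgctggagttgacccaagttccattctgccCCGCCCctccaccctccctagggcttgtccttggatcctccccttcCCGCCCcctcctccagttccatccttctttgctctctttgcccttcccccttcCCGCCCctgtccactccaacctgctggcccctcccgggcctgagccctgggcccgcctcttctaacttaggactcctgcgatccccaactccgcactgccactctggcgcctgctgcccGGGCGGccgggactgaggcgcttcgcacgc
Its GC content was 66.0%, against 60.3% for Axl and a median of 52.7% over all windows.

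Tyro3, the receptor left intact by design, was the most counted of the receptors and was not called. It lies on chromosome 2, plus strand (chr2:119797733-119818104). Wild type libraries held 95.9 CPM at the lowest (WT 2), 121 CPM at the median and 158 CPM at the highest (WT 3). AMKO libraries held 86.4 CPM at the lowest (AMKO 5), 117 CPM at the median and 137 CPM at the highest (AMKO 2). The groups overlapped, with 2 of 6 AMKO libraries above the wild type median. The log2 fold change was -0.14 (SE 0.14, 95% interval -0.43 to 0.15; edgeR adjusted p = 0.576), so that the interval places Tyro3 in AMKO between 74.2% and 111% of wild type. Among AMKO libraries the lowest Tyro3 was in AMKO 5 and AMKO 1 (86.4 and 89.8 CPM), where Mertk was highest. Without them the log2 fold change was 0.02 (SE 0.13, adjusted p = 0.95).

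Divided by exon length, the receptors were far from equal. Tyro3 stood at 19.8 ± 3.68 CPM per kb in wild type, Axl at 11.7 ± 2.44 and Mertk at 1.59 ± 0.684 (SD, n = 6). The ranges of Tyro3 (15.5 to 25.6), Axl (8.83 to 15.3) and Mertk (0.62 to 2.42) did not overlap in wild type. In AMKO, Axl (1.81 ± 0.438) and Mertk (1.56 ± 0.552) overlapped and Tyro3 (18 ± 3.17) stayed well above both. Tyro3 accounted for 59.7% ± 9.39 of the summed receptor level per length in wild type and 83.7% ± 6.12 in AMKO, and Axl for 35.5% ± 7.92 and 8.68% ± 2.84. The sum itself was 31 to 35.5 CPM per kb in wild type and 18.5 to 24.7 CPM per kb in AMKO. These shares follow from the fall of Axl and are given without a test. Exon length is the union of annotated exons, which can be longer than the isoform used in pancreas.

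**Figure D2:**
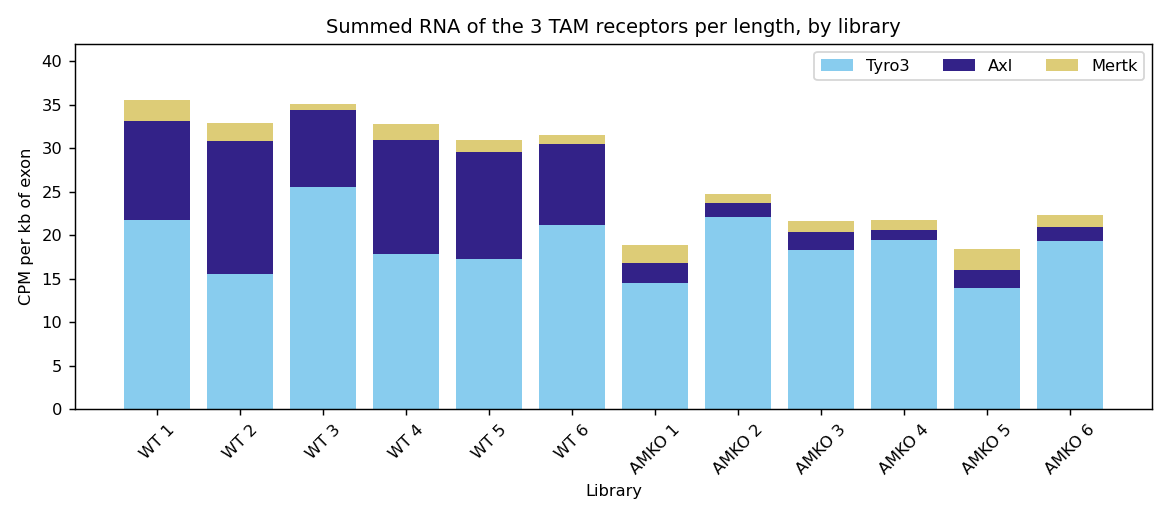
Stacked bars of Tyro3, Axl and Mertk in CPM per kb of exon in each library. The sum was 31 to 35.5 in the 6 WT libraries and 18.5 to 24.7 in the 6 AMKO libraries, where most of it was Tyro3.

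Set among 58 receptor tyrosine kinases, Tyro3 ranked 1 per length in wild type, directly above Egfr, the EGF receptor (16.9 ± 1.84 CPM per kb). Axl ranked 5, between Fgfr1, an FGF receptor (11.9 ± 1.06), and Met, the HGF receptor (10.7 ± 1.01). Mertk ranked 32, between the orphan receptor Ror1 (1.83 ± 0.334) and the ephrin receptor Ephb3 (1.42 ± 0.221). Each of the 3 TAM receptors differed from these neighbours in rank by less than its own SD between libraries. In AMKO, Axl ranked 27, and Tyro3 and Mertk ranked 1 and 30. These ranks depend on the division by union exon length. Before that division Egfr stood above Tyro3 in wild type, at 191 ± 20.8 against 123 ± 22.8 CPM.

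Of the 46 kinases of the family that could be tested, 4 were called and all 4 were lower in AMKO, which is 8.7% against a background of 5.78% in either direction. Axl, a targeted gene, was 1 of these 4, so the share partly follows from the design. The other 3 were Kdr, Flt1 and Pdgfrb. Kdr, the main VEGF receptor of endothelium, held 31.6 to 51.8 CPM in WT and 16.4 to 29.7 CPM in AMKO with no overlap, and fell (log2 fold change -0.83, SE 0.15, edgeR adjusted p = 0.00752). Flt1, a VEGF receptor that limits signalling through Kdr, overlapped at 18.7 to 34.5 CPM in WT and 16.7 to 25.6 CPM in AMKO, and fell (-0.55, SE 0.14, adjusted p = 0.0363). Pdgfrb, the PDGF receptor of pericytes and fibroblasts, overlapped at 27.2 to 39 CPM in WT and 14.8 to 28.9 CPM in AMKO, and fell (-0.62, SE 0.16, adjusted p = 0.033). Axl, at -2.69, had the most negative value among the 46. The 8 endothelial markers, which include Kdr, summed to 154 to 228 CPM in WT and 122 to 190 CPM in AMKO, with none at 0 and 1 of 8 called, and their part in these results was not tested.

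**Figure D3:**
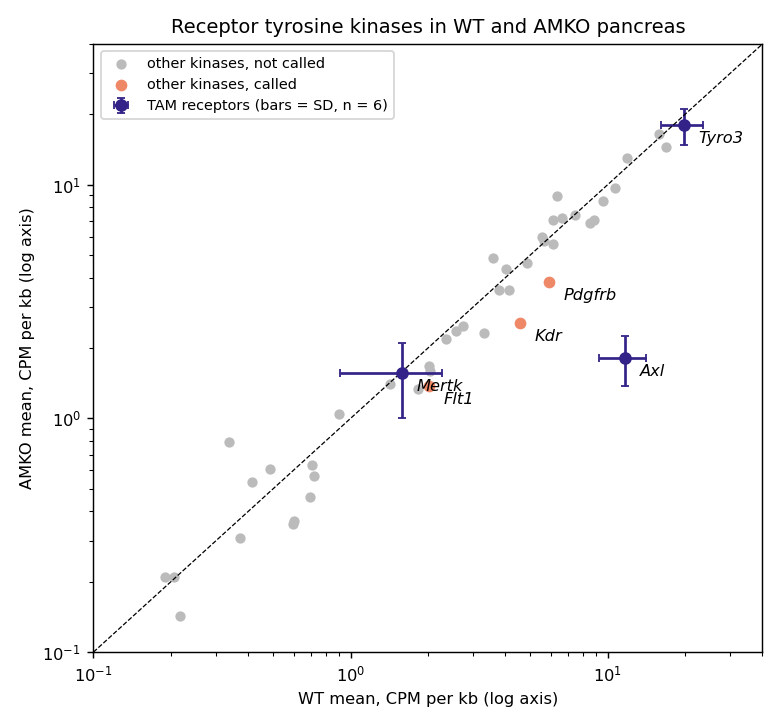
Mean level per length of the 46 tested receptor tyrosine kinases in WT and AMKO (log axes; dashed line, equal levels; bars on TAM receptors, SD, n = 6 each). Axl lies far below the line at 11.7 and 1.81 CPM per kb, while Tyro3 and Mertk lie near it.

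Both ligand genes encode a Gla domain, in which glutamates are carboxylated to bind calcium and phosphatidylserine. The codons around a conserved motif of that domain are shown to compare the ligands (7 codons of the motif in capitals, 21 codons from the GENCODE M21 transcripts, 5′ to 3′ on the coding strand).
Gas6: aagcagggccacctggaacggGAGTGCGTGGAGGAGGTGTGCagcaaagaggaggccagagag
Pros1: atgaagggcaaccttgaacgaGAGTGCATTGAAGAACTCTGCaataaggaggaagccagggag
They were identical at 47 of 63 bases (74.6%), and the longest exact run shared by transcripts of the ligand genes was 12 bases.

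Gas6, whose product binds all TAM receptors, did not pass the test between genotypes. It lies on chromosome 8, minus strand (chr8:13465374-13494490). Wild type libraries held 34 CPM at the lowest (WT 1), 55.3 CPM at the median and 65.6 CPM at the highest (WT 5). AMKO libraries held 46.9 CPM at the lowest (AMKO 3), 48.5 CPM at the median and 64.8 CPM at the highest (AMKO 1). The AMKO values lay entirely within the wild type range, and 4 of the 6 fell between 46.9 and 48.8 CPM, with AMKO 1 and AMKO 5 above. The log2 fold change was -0.01 (SE 0.14, 95% interval -0.32 to 0.30; edgeR adjusted p = 0.985), a level in AMKO between 80.1% and 123% of wild type. The sign of so small a value turned under 5 of 15 other settings and in 7 of 12 fits that left out 1 library, with values from -0.14 to 0.17 and no call.

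Pros1, which encodes protein S, the ligand of Tyro3 and Mertk and an anticoagulant cofactor, had lower fitted values in AMKO without passing the test over all genes. It lies on chromosome 16, plus strand (chr16:62854307-62929346). Wild type libraries held 36.5 CPM at the lowest (WT 1), 44.8 CPM at the median and 52.2 CPM at the highest (WT 2). AMKO libraries held 29.4 CPM at the lowest (AMKO 2), 34.2 CPM at the median and 46.2 CPM at the highest (AMKO 1). The groups overlapped, since AMKO 1, AMKO 4 and AMKO 5 were above the lowest wild type library, while the other 3 AMKO libraries were below all wild type libraries. The log2 fold change was -0.31 (SE 0.12, 95% interval -0.58 to -0.05; edgeR unadjusted p = 0.0245, adjusted p = 0.154).

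This value lay close to the threshold and its call depended on the fit. Pros1 passed with limma voom and quality weights (-0.39, SE 0.11, adjusted p = 0.04), with the macrophage score as a covariate (-0.41, SE 0.11, adjusted p = 0.0188) and without AMKO 1 and AMKO 5 (-0.46, SE 0.11, adjusted p = 0.0151), and its adjusted p ranged up to 0.49 over the other settings. AMKO 1 and AMKO 5 were also the AMKO libraries with the most fibroblast and stellate marker RNA (967 and 1080 CPM, against 510 to 563 CPM in the other 4 and 656 to 1160 CPM in wild type; 8 markers, none at 0, 1 of 8 called, Pdgfrb). The part of these cells in the Pros1 values was not tested. Liver is the main source of plasma protein S, and hepatocyte markers were lower in WT 1 to 3 than in any other library. Pros1 was at -0.32 on the log2 scale against WT 4 to 6 alone (edgeR adjusted p = 0.329) and at -0.29 against WT 1 to 3 alone (adjusted p = 0.428).

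Per length, Gas6 exceeded Pros1 in every library. Gas6 stood at 21 ± 4.57 CPM per kb in wild type and 20.8 ± 3.13 in AMKO, and Pros1 at 10.9 ± 1.39 and 8.78 ± 1.68. Their ratio was 1.49 to 2.47 in wild type and 2.06 to 2.66 in AMKO, overlapping between genotypes. In order of level per length in wild type the members ran Gas6, Tyro3, Axl, Pros1 and Mertk. Gas6 and Tyro3 did not differ beyond their spread, nor did Axl and Pros1.

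Genes whose RNA varied most like each member within genotypes were sought among 10091 genes by Pearson's r of log2 CPM, centred on the genotype mean, over the 12 libraries. These are the highest of many values, so no p is given. Axl was most like Layn, a hyaluronan receptor (r = 0.95, Spearman rho = 0.93), Palmd (0.93, rho = 0.91) and Olfr1033 (0.93, rho = 0.94). Mertk was most like the DNA helicase gene Recql (r = 0.93, rho = 0.88), the mesothelial gene Msln (0.92, rho = 0.92) and the splicing factor gene Cdc40 (0.92, rho = 0.73).

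For Tyro3 the closest were Esrp1, an epithelial splicing regulator (r = 0.97, rho = 0.92), the nuclear import gene Ipo5 (0.97, rho = 0.95) and the ceramide synthase gene Cers2 (0.96, rho = 0.84). Gas6 was most like the fatty acid desaturase gene Fads1 (r = 0.96, rho = 0.87), Bckdhb, of branched-chain amino acid breakdown (0.95, rho = 0.8), and Gemin4 (0.87, rho = 0.86). Pros1 was most like Srpx (r = 0.95, rho = 0.94), the collagen-modifying enzyme gene Plod2 (0.94, rho = 0.95) and the ornithine aminotransferase gene Oat (0.93, rho = 0.94). Of these 15 genes only Fads1 was itself called between genotypes (log2 fold change -0.48, SE 0.11, edgeR adjusted p = 0.0213).

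Genes that act on or below the receptors were taken from 7 lists with 83 genes, of which 72 could be tested. Of these, 2 rose and 5 fell in AMKO, 9.72% called against 5.78% of all genes, and the median log2 fold change was -0.04 against 0 for all genes. The count moved with the libraries and the model, as did that over all genes (794). It was 1 against WT 4 to 6 alone (167 of all genes), 3 against WT 1 to 3 alone (231), 15 without AMKO 1 and AMKO 5 (2115) and 1 without WT 3, WT 6, AMKO 3 and AMKO 6 (98). With all 12 libraries it was 14 with the macrophage covariate (2108 of all genes) and 10 with limma voom (1664).

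Among other reported TAM ligands and genes of phosphatidylserine exposure, 1 of 7 was called. This was Lgals3, which encodes galectin-3, a glycan-binding protein abundant in activated macrophages and reported as a MERTK ligand. It held 97.2 to 157 CPM in WT and 144 to 250 CPM in AMKO, where WT 5 alone overlapped the AMKO libraries, and it rose (log2 fold change 0.74, SE 0.16, edgeR adjusted p = 0.0148; 0.179 against WT 4 to 6 alone and 0.243 without WT 3, WT 6, AMKO 3 and AMKO 6). Beside summed macrophage markers of 535, 617 and 1620 CPM, it stood at 250 CPM in AMKO 6, 231 CPM in AMKO 3 and 223 CPM in AMKO 5, its highest values. With the macrophage score as a covariate the log2 fold change of Lgals3 was 0.75 (SE 0.16, edgeR adjusted p = 0.00691). Which cells held its RNA was not tested. Ano6, a phospholipid scramblase that exposes phosphatidylserine, did not pass (-0.25, SE 0.08, adjusted p = 0.0736).

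Vitamin K carboxylation, which the ligands need, had no call among 5 tested genes. The smallest p-values were those of the quinone reductase gene Nqo1 (-0.81, SE 0.29, edgeR adjusted p = 0.118) and Calu, which encodes the carboxylation inhibitor calumenin (-0.10, SE 0.07, adjusted p = 0.381). Vkorc1, the epoxide reductase that warfarin inhibits, stood at 6.15 ± 0.809 CPM in WT and 7.21 ± 1.63 CPM in AMKO. The carboxylase gene Ggcx had at most 6 counts in a library and could not be tested. Among other genes of Gla proteins, 1 of 9 was called. Prrg4, a transmembrane Gla protein gene, held 12.9 to 22.7 CPM in WT and 8.16 to 13.9 CPM in AMKO, overlapping only through WT 5, and it fell (-0.84, SE 0.15, adjusted p = 0.00647; 0.122 against WT 4 to 6 alone and 0.126 without WT 3, WT 6, AMKO 3 and AMKO 6).

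Receptor shedding, in which metalloproteases release the ectodomains of AXL and MERTK, had 1 call among 6 genes. Timp3, an inhibitor of ADAM proteases, held 64.8 to 97.8 CPM in WT and 48.6 to 61.2 CPM in AMKO with no overlap, and it fell (log2 fold change -0.54, SE 0.09, edgeR adjusted p = 0.00511; 0.0541 against WT 4 to 6 alone and 0.0911 without WT 3, WT 6, AMKO 3 and AMKO 6). The sheddases themselves did not pass. Adam17 stood at 43.9 ± 4.93 CPM in WT and 39.2 ± 5.95 CPM in AMKO (-0.16, SE 0.10, adjusted p = 0.393), and Adam10 at 187 ± 8.39 and 181 ± 11.6 CPM (-0.04, SE 0.06, adjusted p = 0.728).

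Of 7 receptor partners, Itgav was called. It encodes the integrin alpha V chain that acts beside MERTK in engulfment, held 90.7 to 119 CPM in WT and 68.2 to 94.5 CPM in AMKO, and fell (-0.35, SE 0.09, edgeR adjusted p = 0.0424), though 9 of 12 fits without 1 library did not pass (up to 0.0948). Of 25 genes of intracellular signalling 2 were called, 8% of the list. Dock1, an exchange factor that activates Rac during engulfment, held 31 to 47 CPM in WT and 24.2 to 32.5 CPM in AMKO, overlapping through WT 5 and AMKO 5, and fell (-0.49, SE 0.10, adjusted p = 0.0141; 0.128 against WT 4 to 6 alone, 0.0503 against WT 1 to 3 alone and 0.218 without WT 3, WT 6, AMKO 3 and AMKO 6). Ptk2, the focal adhesion kinase gene, held 69.3 to 78.6 CPM in WT and 57.6 to 67.4 CPM in AMKO and fell by 0.23 on the log2 scale (SE 0.06, adjusted p = 0.0424), and in 11 of 12 fits without 1 library it did not pass (up to 0.107).

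Among 13 tested regulators of receptor transcription, 1 was called. Fosl1, which encodes the AP-1 subunit FRA-1, held 8.03 to 15.6 CPM in WT and 18.1 to 44.7 CPM in AMKO with no overlap, and it rose (log2 fold change 1.30, SE 0.22, edgeR adjusted p = 0.00467; 0.0929 against WT 1 to 3 alone). It was highest in AMKO 2 (44.7 CPM). The nuclear receptor genes Nr1h3 and Nr1h2, which encode LXR proteins that induce Mertk in macrophages, did not pass, at 0 on the log2 scale for Nr1h3 (SE 0.14, edgeR adjusted p = 0.996) and 0.15 for Nr1h2 (SE 0.10, adjusted p = 0.382).

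**Figure D4:**
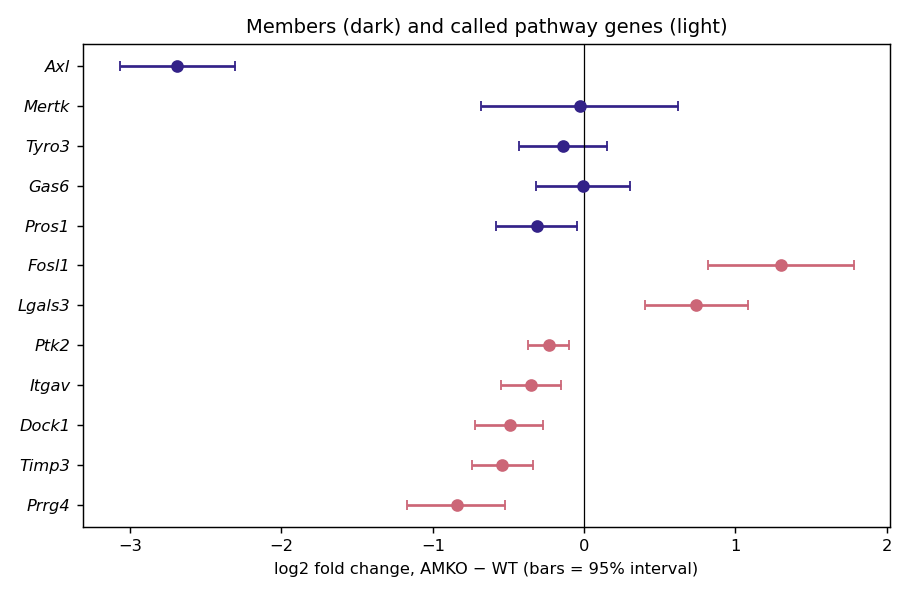
Log2 fold change (AMKO minus WT) with 95% interval from the edgeR fit, for the 5 members and the 7 called pathway genes. Among the members the interval of Axl (-3.07 to -2.31) is far from 0, that of Pros1 ends at -0.05, and those of Mertk, Tyro3 and Gas6 include 0.

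The surroundings of the genes differed. Within 1 Mb of Axl, 0 of 28 other tested genes were called by edgeR (adjusted p), and on chromosome 7 as a whole 5.52% were. Within 1 Mb of Mertk 6 of 15 were called, within 1 Mb of Tyro3 9 of 40, within 1 Mb of Gas6 2 of 21 and within 1 Mb of Pros1 0 of 3, against 5.78% of all genes. Tyro3 and Mertk lie 8.88 Mb apart on chromosome 2, and 19 of the 85 tested genes between them were called (22.4%), 3 higher and 16 lower, against 8.97% on chromosome 2 as a whole. The called pathway genes Itgav and Prrg4 also lie on chromosome 2, outside this interval.

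Near Mertk, the phosphate transporter gene Slc20a1, 396 kb away, rose from 41 ± 2.9 to 68.9 ± 7.88 CPM (log2 fold change 0.75, SE 0.08, edgeR adjusted p = 0.000225), and Chchd5 rose as well (0.68). Anapc1, a subunit gene of the anaphase-promoting complex 12 kb from Mertk, fell from 78.2 ± 3.31 to 64.3 ± 4.38 CPM (-0.28, SE 0.06, adjusted p = 0.0154). Mall (-0.72) and Stk35 (-0.33) fell too. Slc20a1, Chchd5 and Anapc1 did not overlap between genotypes, nor did 3.54% of all genes tested, while Mall and Stk35 did overlap. These genes were picked because they were called, which favours such separation.

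Near Tyro3, Rhov rose from 16.7 ± 3.16 to 46.2 ± 9.28 CPM (log2 fold change 1.47, SE 0.15, edgeR adjusted p = 0.000154), as did Exd1 (1.45), Itpka (1.33), which lies 46 kb away, and Chac1 (1.05), a glutathione-degrading enzyme gene of the stress response. Dnajc17 (-1.09), 1700020I14Rik (-0.65), Haus2 (-0.52), Chp1 (-0.47) and Vps39 (-0.44) fell. All 9 were free of overlap between genotypes, as were 3.54% of all genes tested, but these 9 were picked because they were called. Tyro3 itself, which lies among these genes, was not called. Near Gas6, Champ1 (0.31) rose and Mcf2l (-0.58) fell.

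**Figure D5:**
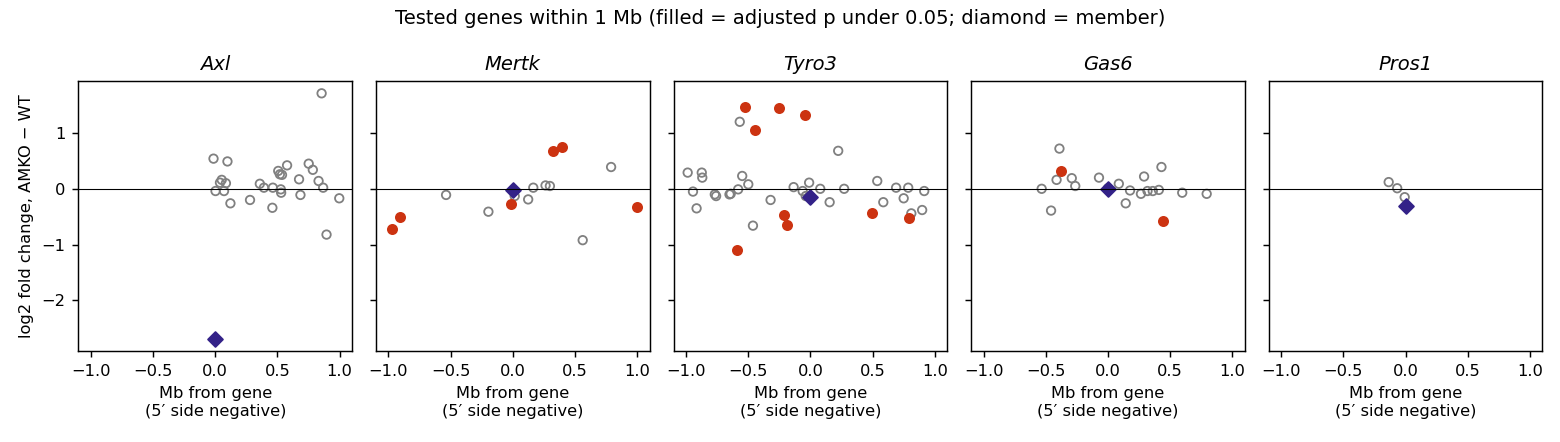
Log2 fold change (AMKO minus WT) of tested genes within 1 Mb of each member against distance in Mb along the direction of the member, with called genes filled and the member as a diamond. Called genes number 6 of 15 around Mertk, 9 of 40 around Tyro3, 2 of 21 around Gas6, 0 of 28 around Axl and 0 of 3 around Pros1, against 5.78% of all genes tested.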

How the data were processed

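RNA from 12 pancreas samples was sequenced. Raw counts for each gene were deposited, and reads were aligned with HISAT2 2.0.4 to mm10, per the submitters' processing notes. The counter, the annotation, strand use and the handling of reads with several matches are not stated in the sources used here. In R 4.3.3, edgeR 4.0.16 compared the genotypes on the counts, using its quasi-likelihood test on a model of genotype alone. Low counts were removed by filterByExpr, libraries were scaled by TMM, and p-values of the 13743 remaining genes were adjusted by Benjamini-Hochberg, with a call at an adjusted p under 0.05. The fit was tested on simulated data. SE is the log2 fold change divided by the root of F, and intervals are at 95%. Levels are TMM-scaled CPM, and log2 CPM used a prior count of 2. Positions and lengths are from GENCODE M21 (GRCm38, the assembly of mm10), and promoters from RefSeq (GRCm38.p6), where all 5 members matched. Limma 3.58.1, DESeq2 1.42.0 and a two-sided exact permutation test were alternatives, beside other scalings, filters, libraries and covariates.

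The members and lists were chosen with earlier results of these data known. The text names all members, called pathway and kinase genes, the pathway genes with the smallest p in an uncalled list, kinases next in rank to a receptor, the 3 genes most like each member and called genes within 1 Mb, apart from 1 that is not reported here. Ano6, Vkorc1, Adam10, Adam17, Nr1h2, Nr1h3 and the markers Mrc1, Bhlha15, Ptf1a, Epcam and Muc1 were named for their roles after their values were seen. The labels do not say that samples came from separate mice, so p-values measure the spread between samples. Intervals on counts cover counting error only. No library duplicated another, as the lowest chi-square per degree of freedom between libraries of a genotype was 9.15.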

Additional observations from a re-analysis of the deposited data

Results flagged for a closer look

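Of 24 pairs of gene and genotype searched (the members and the called pathway genes), 2 had a library far from the other 5 of its genotype, where chance alone gives about 1 in 20. Both were in WT 5. Prrg4 stood at 3.71 log2 CPM in WT 5, against 4.27 to 4.51 log2 CPM in the other wild type libraries. Lgals3 stood at 7.3 log2 CPM in WT 5, against 6.6 to 6.84 log2 CPM in the others. In both, the value of WT 5 lay on the side of the AMKO libraries. None of the 5 members had such a library in either genotype.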

How the results depend on the processing

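Axl was called lower in all 12 fits that left out 1 library (-2.76 to -2.58). It was lower under all 15 other settings (-2.87 to -2.66) and called in each that adjusted p over genes. The exact permutation test gave an unadjusted p = 0.00216. Mertk, Tyro3 and Gas6 were called under no setting. Their signs turned in Mertk at 0.03 (exact permutation test), 0.01 (replicate block) and 0.11 (WT 4 to 6 alone), and from -0.19 to 0.14 without 1 library. In Gas6 they turned at 0.01 (RLE scaling, exact permutation test and replicate block), 0.14 (WT 1 to 3 alone) and 0.17 (without WT 3, WT 6, AMKO 3 and AMKO 6), and from -0.10 to 0.06 without 1 library. In Tyro3 the sign turned without AMKO 1 and AMKO 5 (0.02). Pros1 was below 0 throughout (-0.39 to -0.25 without 1 library). It passed with limma voom (-0.39), with the macrophage covariate (-0.41) and without AMKO 1 and AMKO 5 (-0.46). The exact permutation test gave Pros1 -0.32 with p = 0.039, which is not adjusted over genes and so is no call.

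Of all genes 794 were called, 1302 with DESeq2, 1664 with limma voom, 2108 with the macrophage covariate, 456 with total-count scaling, 231 against WT 1 to 3, 167 against WT 4 to 6, 2115 without AMKO 1 and AMKO 5, and 98 without WT 3, WT 6, AMKO 3 and AMKO 6. Leaving out 1 library gave 411 to 1140, with 421 without AMKO 2, 411 without AMKO 3, 524 without WT 2 and 505 without WT 4. Of pathway genes 7 were called, 5 to 7 without 1 library, and 14 with the macrophage covariate, 3 against WT 1 to 3, 1 against WT 4 to 6, 15 without AMKO 1 and AMKO 5, and 1 without WT 3, WT 6, AMKO 3 and AMKO 6. The settings that leave out AMKO 1 and AMKO 5, or these 4 libraries, were chosen after seeing the data. The causes were not tested. Whether replicate numbers mark matched samples is not stated in the labels. Same-numbered libraries correlated at -0.18 to 0.36 and 1 of 6 wild type libraries was most like its own number, which cannot decide this. Summed neutrophil markers were lowest in WT 3, WT 6, AMKO 3 and AMKO 6, the same numbers in both genotypes. With the replicate block Axl stayed called (-2.69), 910 genes were called, and no member's call changed. Mertk, with 33 to 170 counts a library, and Axl in AMKO, with 66 to 187, carry counting error beside the spread between libraries.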

Other observations

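Some genes were close to absent from the table, and whether a low count in it means low expression was not tested. Ggcx, the carboxylase gene of the Gla proteins, had at most 6 counts in any library, and the MHC class II gene H2-Ab1 had 0 counts in 4 libraries and at most 11. Trac and Prss2 were listed at 0 in all 12 libraries. The 7 T cell markers, which include Trac, were low together, summing to 0.734 to 2.63 CPM in WT and 0.541 to 15.2 CPM in AMKO.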
